A study of Homo sapiens with 6 samples.

Results

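The genes examined here are those named as mitochondrial ribosomal proteins. They were taken by name, as every listed symbol made of MRPL and a number or MRPS and a number with an optional letter from A to C, without use of any measured value. Of 23059 listed genes 78 fitted, 49 with large subunit (MRPL) and 29 with small subunit (MRPS) symbols. The cells were HCC-LM3, a line of human hepatocellular carcinoma, treated with apigenin, a flavone found in many plants, or with DMSO, the solvent control. Total RNA of 3 apigenin and 3 DMSO samples, labelled biological replicates, was sequenced, and the labels state neither a dose nor a time of treatment. All libraries come from this one line.

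Mitochondria keep their own ribosome, which translates the few membrane proteins of the respiratory chain and ATP synthase that mitochondrial DNA encodes. Its ribosomal RNAs come from mitochondrial DNA, while all of its proteins are encoded in the nucleus, made in the cytosol and imported. The small subunit holds the mRNA and decodes it, and the large subunit joins amino acids and feeds the new chain into the inner membrane. Liver cells are rich in mitochondria and depend on this supply.

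The libraries held 33882145 to 37983636 counts. Keratins KRT8 (2229 to 2592 CPM) and KRT18 were abundant and ALB was present (51.5 to 53.9 CPM with apigenin, 119 to 125 CPM with DMSO), whereas AFP stood at 5.40 to 8.16 CPM and APOA1 at 0.236 to 1.94 CPM. CPM are read counts over library size, the size adjusted by TMM factors. COL1A2, PDGFRB, CDH5, PTPRC and CD3E, markers of fibroblasts, endothelium and leukocytes, were each at most 0.268 CPM in every library, and COL1A1, DCN and VWF at most 1.23 CPM, while PECAM1 (42.6 to 53.2 CPM) and CD68 (85.1 to 93.8 CPM) were not. The apigenin libraries differed from one another by 8.81 to 27.5 times counting noise (chi-square over its degrees of freedom), and the DMSO libraries by 4.35 to 5.15 times, and no library repeated another. In bulk RNA, a change in the number of cells that express a gene and a change in RNA per cell cannot be told apart.

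Most mitochondrial ribosomal protein genes stood slightly higher with apigenin, and a few passed the test. Of the 77 that were tested, 7 rose, none fell and 70 did not pass in edgeR's quasi-likelihood test (Benjamini-Hochberg adjusted p under 0.05 over 15173 genes), where 2.76% of all tested genes were called higher, 4.22% lower and 6.99% in either direction. At an unadjusted p under 0.05, 29 members were higher and none lower, against 11.7% and 12.6% of all genes. DESeq2 called 14 members higher and none lower, where it called 727 (4.79%) of all tested genes higher and 973 lower. The log2 fold change (apigenin over DMSO) lay above 0 for 71 of the 77, against 50.8% of all tested genes. Its median was 0.15, with quartiles of 0.07 and 0.24 and a range of -0.07 to 0.38, beside a median of 0.00 and quartiles of -0.15 and 0.15 over all genes. All 3 apigenin libraries lay above all 3 DMSO libraries in CPM for 25 members and below them for none, against 14.4% and 15% of all tested genes.

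The calls depended on which libraries entered. Without DMSO 1 or DMSO 2 edgeR called no member. At an unadjusted p under 0.05, 19 and 22 members were higher in these fits. The share of all genes at that threshold was not computed there, so these counts have no background beside them. Without DMSO 3 or apigenin 1 it called 1 member each, MRPL32 and MRPL44. Over all genes 0.663, 0.900 and 0.795% were called higher without DMSO 1, 2 and 3, and 0.807% without apigenin 1. Without apigenin 2 it called 33 members and 8.66% of all genes higher, and without apigenin 3 the same 7 members and 3.69% of all genes. With the trend of the fold changes on gene length removed, as described further on, 3 members were called, 2 of the 7 and another one. The median log2 fold change of the members stayed above 0 in every setting run, between 0.0174 and 0.2383. The lowest value came with the length trend removed and apigenin 3 left out. In that fit 44 of the 77 members lay above 0, and the median over all genes was 0.0008.

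**Figure D1:**
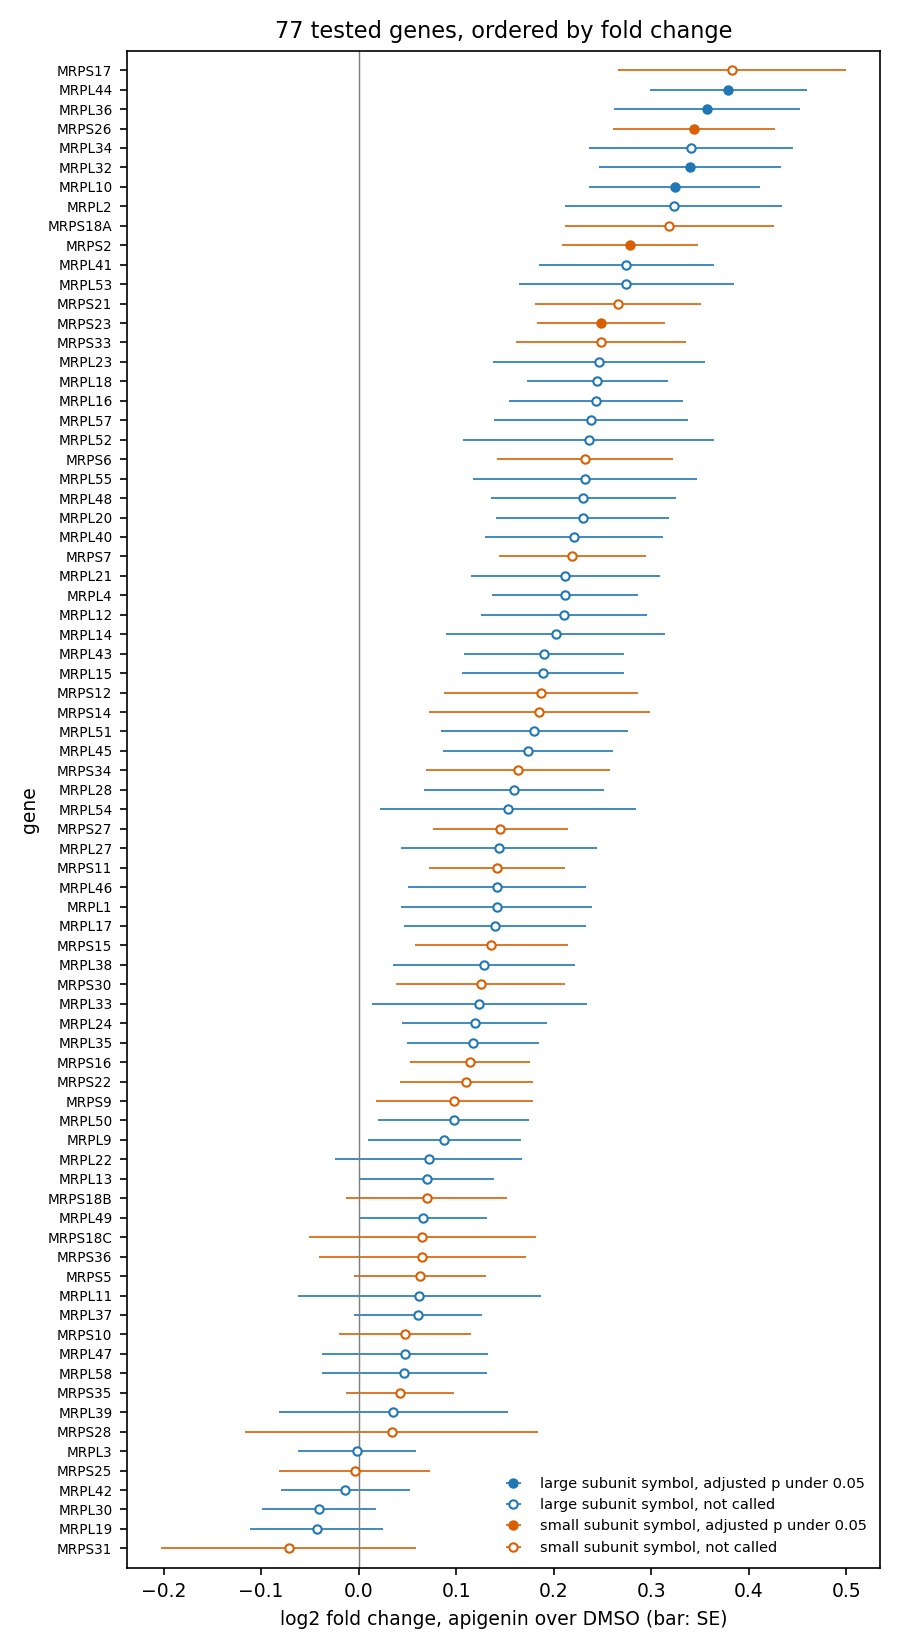
The log2 fold change of apigenin over DMSO (x axis, bar: standard error) for the 77 tested genes in order of size, coloured by subunit symbol, with the 7 genes at an adjusted p under 0.05 filled. All but 6 genes lie right of 0, and the largest, MRPS17 at 0.38, is among those not called.

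Of the large subunit genes 4 rose. MRPL44 encodes a large subunit protein related to RNase III that is needed for assembly (chromosome 2, 223950854 to 223967714 on GRCh38). It had 47.9, 49.9 and 54.9 CPM in the apigenin libraries 1 to 3, against 41.3, 40.4 and 35.6 CPM in the DMSO libraries. The groups did not overlap, and the log2 fold change was 0.38 ± 0.081 (SE, n = 3 per group, adjusted p = 0.0138). MRPL36 (chromosome 5, 1798385 to 1801434) encodes the counterpart of a small bacterial protein of the large subunit. It had 30.5, 24.6 and 29.1 CPM with apigenin, against 22.8, 21.2 and 21.8 CPM with DMSO, a change of 0.36 ± 0.095 (adjusted p = 0.0387). Apigenin 2 was the nearest to the DMSO range. MRPL36 overlaps NDUFS6, which encodes a subunit of respiratory complex I, and without known strand their shared reads cannot be told apart.

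MRPL32 (chromosome 7, 42932376 to 42937857) encodes a protein that a protease of the inner membrane trims before it joins the ribosome. Its levels were 47.9, 47.0 and 56.5 CPM with apigenin, against 38.5, 36.3 and 44.8 CPM with DMSO (log2 fold change 0.34 ± 0.093, adjusted p = 0.0433). The lowest apigenin library was close to the highest DMSO library. MRPL10 (chromosome 17, 47823272 to 47831541) encodes the protein that anchors the stalk on which translation factors land. It had 51.1, 44.9 and 49.9 CPM with apigenin, against 40.9, 34.1 and 41.7 CPM with DMSO (0.32 ± 0.087, adjusted p = 0.0403). For MRPL10 and MRPL36 apigenin 1 was the highest library.

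Of the small subunit genes 3 rose. MRPS26 (chromosome 20, 3046052 to 3048250) encodes a protein found in mitochondrial but not in bacterial ribosomes. It had 55.9, 52.8 and 64.98 CPM with apigenin, against 46.7, 47.2 and 42.9 CPM with DMSO (log2 fold change 0.34 ± 0.083, adjusted p = 0.0265). MRPS2 (chromosome 9, 135499965 to 135504673), which overlaps LOC101928525, encodes a protein shared with bacterial ribosomes. It had 93.6, 80.3 and 89.4 CPM with apigenin, against 70.4, 75.6 and 71.0 CPM with DMSO (0.28 ± 0.070, adjusted p = 0.0313). Its highest library was apigenin 1. MRPS23 (chromosome 17, 57834781 to 57850044), which encodes another protein with no bacterial counterpart, had 76.2, 80.6 and 86.6 CPM with apigenin, against 67.7, 68.1 and 69.0 CPM with DMSO (0.25 ± 0.066, adjusted p = 0.0378). Its DMSO libraries were the most alike of the 7 genes. Over the 20 other settings the highest adjusted p was 0.108 for MRPL44 and 0.170 for MRPS23, and up to 0.391 (MRPL36) for the other 5. None of the 7 changed direction.

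**Figure D2:**
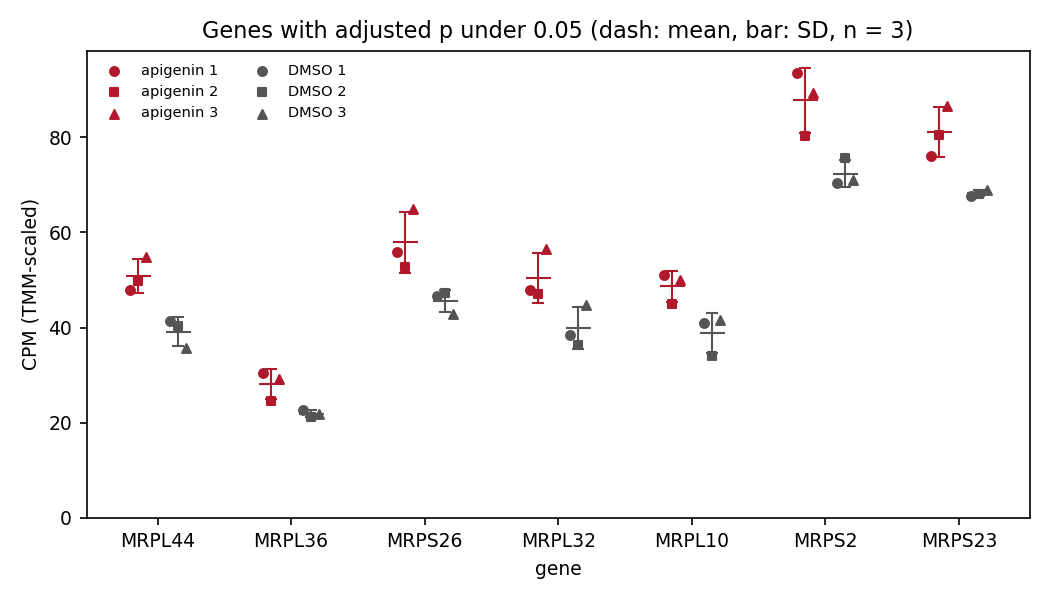
CPM in each library (points, shaped by replicate number), with mean and SD, for the 7 genes at an adjusted p under 0.05, with apigenin left of DMSO. In each gene the 3 apigenin libraries sit above the 3 DMSO libraries. In MRPL32 the lowest apigenin library, at 47.0 CPM, is close to the highest DMSO library, at 44.8 CPM.

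Several members had a change as large without passing the test. MRPS17, a small subunit protein gene, had 31.8, 28.3 and 41.6 CPM with apigenin, against 25.8, 25.3 and 26.9 CPM with DMSO (log2 fold change 0.38 ± 0.117, adjusted p = 0.0632). The groups did not overlap, and apigenin 3 stood far above the other apigenin libraries. MRPL34 (0.34 ± 0.105, adjusted p = 0.0642) overlaps ABHD8. MRPL2 (0.32 ± 0.111, adjusted p = 0.0922), whose protein lies near the site of peptide bond formation, overlaps KLC4. Both were also highest in apigenin 3, and their groups did not overlap but nearly met. For MRPL34 the lowest apigenin library had 33.0 CPM and the highest DMSO library 32.8 CPM. For MRPL2 these were 19.4 and 19.0 CPM. MRPL41, a large subunit protein gene, averaged 72.1 ± 10.7 CPM with apigenin and 59.6 ± 1.01 CPM with DMSO (SD, n = 3 each; adjusted p = 0.0788).

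The stalk and its base gave uneven values. Beside MRPL10, MRPL12 encodes the protein present in several copies on the stalk, and it also binds mitochondrial RNA polymerase. It had 246, 225 and 303 CPM with apigenin, against 223, 225 and 221 CPM with DMSO (log2 fold change 0.21 ± 0.085, adjusted p = 0.145). Apigenin 2 lay within the DMSO range, and apigenin 3 far above it. MRPL11, of the stalk base, had 44.2, 32.6 and 52.1 CPM with apigenin, against 39.9, 41.8 and 41.7 CPM with DMSO, so that apigenin 2 was below and apigenin 3 above every DMSO library (0.06 ± 0.124).

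Several other genes with small subunit symbols gave intermediate values. MRPS12, at the decoding site, had 85.2, 74.6 and 105 CPM with apigenin, against 74.5, 82.7 and 75.0 CPM with DMSO (adjusted p = 0.272). MRPS7, a head protein gene that overlaps GGA3 and MIF4GD, averaged 186 ± 22.4 CPM with apigenin and 159 ± 3.22 CPM with DMSO (SD, n = 3 each; log2 fold change 0.22 ± 0.075, adjusted p = 0.0911). MRPS16 and MRPS22, whose loss causes human mitochondrial disease, had log2 fold changes of 0.11 ± 0.062 and 0.11 ± 0.068. MRPS22 was even across apigenin libraries, at 42.5, 43.1 and 43.3 CPM, against 40.5, 38.4 and 40.5 CPM with DMSO. The log2 fold change was 0.23 ± 0.090 for MRPS6 and 0.16 ± 0.095 for MRPS34, and neither passed. MRPS6, MRPS34 and MRPS16 overlap SLC5A3, EME2 and DNAJC9-AS1. In all, 23 tested members overlap another listed gene, and 5 of the 54 others were called higher, where 2.76% of all tested genes were.

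The human genome has 3 genes related to the bacterial S18 protein, and they differed in value. MRPS18A had a log2 fold change of 0.32 ± 0.107 (adjusted p = 0.0873), MRPS18B of 0.07 ± 0.083 and MRPS18C of 0.07 ± 0.116. None passed. MRPS18A and MRPS18C overlap RSPH9 and ABRAXAS1.

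The 6 members below 0 were all within 1 standard error of it. MRPS31 had 8.52, 7.13 and 8.28 CPM with apigenin, against 7.72, 8.35 and 9.06 CPM with DMSO (log2 fold change -0.07 ± 0.131). MRPL19 and MRPL30 both stood at -0.04, MRPL42 at -0.01, and MRPS25 and MRPL3 at 0.00 after rounding. MRPL3, an abundant core protein gene of the large subunit, averaged 140 ± 7.46 CPM with apigenin and 140 ± 4.87 CPM with DMSO (SD, n = 3 each). Low values above 0 came from MRPS28 (0.03 ± 0.150), MRPL39 (0.04 ± 0.117), MRPS35 (0.04 ± 0.055) and MRPL58 (0.05 ± 0.084), the last of which frees stalled ribosomes of their peptide.

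MRPS24 was nearly absent from the counts. It had 0, 0 and 4 reads with apigenin, against 1, 0 and 1 with DMSO, and did not pass the filter on low counts. A count of 0 allows 0.0885 CPM in apigenin 1 and 0.0790 CPM in apigenin 2 (3 counts; counting error only). In GENCODE 29 MRPS24 lies wholly within the read-through gene URGCP-MRPS24, a symbol that was not among the listed genes. Whether its reads were lost to that overlap was not tested.

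The apigenin libraries were then taken apart, each set against the mean of the DMSO libraries on the log2 CPM scale. Apigenin 1, 2 and 3 had median differences of 0.11, 0.04 and 0.34 over the 77 members. Those of DMSO 1, 2 and 3 were 0.00, 0.01 and -0.02. Members above the DMSO mean numbered 63, 47 and 74 in apigenin 1 to 3 and 39, 42 and 34 in DMSO 1 to 3. Over all tested genes the share above that mean was 50.8 to 50.9% in each apigenin library. Apigenin 2 thus had quartiles of -0.05 and 0.11 on both sides of 0, while apigenin 3 had 0.20 and 0.44.

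Apigenin 3 was the highest apigenin library for 70 of 77 members (90.9%, against 37.6% of all tested genes). The full order of apigenin 3, then 1, then 2 held for 51 members (66.2%, against 23.3% of all). The 7 exceptions were MRPL10, MRPL36, MRPS2 and MRPS31, highest in apigenin 1, and MRPL19, MRPS10 and MRPS30, highest in apigenin 2. Of the 7 called genes 3 are among them. All 3 apigenin libraries lay above the DMSO mean for 40 members (51.9%, against 27.3% of all tested genes) and below it for 1.

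**Figure D3:**
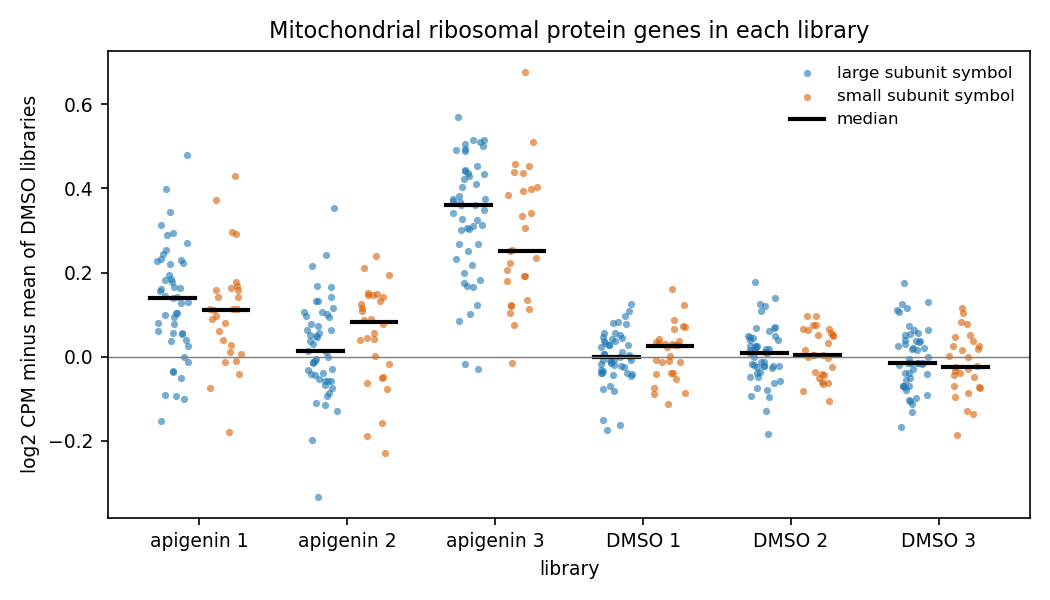
Each tested member (point) in each library as log2 CPM minus the mean of the DMSO libraries, for large and small subunit symbols, with medians as bars. Apigenin 3 stands highest (medians 0.36 and 0.25), apigenin 2 lies near the DMSO libraries (0.01 and 0.08), and the DMSO medians stay within 0.03 of 0.

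Large and small subunit symbols had similar values. The median log2 fold change was 0.17 for the 49 large and 0.14 for the 28 tested small subunit genes, with 45 and 26 above 0. Of the large ones 4 rose, and of the small ones 3, where 2.76% of all tested genes rose. Per library, the large subunit median minus the small subunit median came to 0.03, -0.07 and 0.11 for apigenin 1 to 3, and to -0.03, 0.01 and 0.01 for DMSO 1 to 3. The sign of the difference was not shared by the apigenin libraries. The groups did not overlap, with apigenin higher, for 14 large (28.6%) and 11 small subunit genes (39.3%), against 14.4% of all tested genes.

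Symbols do not fully follow the structure of the ribosome. MRPS30 and MRPS18A encode proteins that sit in the large subunit, and MRPS36, which RefSeq lists as KGD4, encodes a subunit of the oxoglutarate dehydrogenase complex. MRPS30 had a log2 fold change of 0.13 ± 0.087 and MRPS36 of 0.07 ± 0.106. With these genes moved or left out, a choice made after seeing the data, the large subunit median was 0.17, the small subunit median 0.14 and their difference 0.03.

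The mitochondrial ribosomal protein genes are short, and the fold changes of all genes followed length. Their median length was 1550 nucleotides (1368 for large and 1642.5 for small subunit symbols), against 3872 over all tested genes, and 70 of the 77 were shorter than that. Across all tested genes, the log2 CPM difference from the DMSO mean changed per doubling of length by -0.07, -0.02 and -0.15 in apigenin 1 to 3, while each DMSO slope was 0.00 after rounding. Within the members the apigenin slopes were -0.05, 0.01 and -0.08. The Spearman correlation of log2 fold change with length was -0.30 over the 77 members and -0.36 over all tested genes, which share libraries and are not independent. The steeper a library's slope, the higher was the members' median in it; the part of length in their change was not tested beyond the fit that follows.

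With each library's smooth trend on length removed, the median log2 fold change of the members was 0.05 in place of 0.15, and 51 of 77 lay above 0. In single libraries the median difference from the DMSO mean was then 0.03, 0.02 and 0.12 for apigenin 1 to 3, and 0.01, 0.00 and -0.01 for DMSO 1 to 3. Members called higher were MRPL44 (0.28 ± 0.068, adjusted p = 0.0112), MRPS23 (0.30 ± 0.061, adjusted p = 0.0035) and MRPS33 (0.25 ± 0.079, adjusted p = 0.0463), a small subunit gene named after its values were seen. These were 3 of 77, while 4.63% of all genes were called higher in that fit. MRPL36 (0.22), MRPL10 (0.23), MRPS26 (0.19), MRPL32 (0.17) and MRPS2 (0.17) were not called there. In that fit 23 members that had been above 0 lay below it, MRPL24 and MRPS35 among them, and MRPL19, MRPL42 and MRPS25 lay above it.

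**Figure D4:**
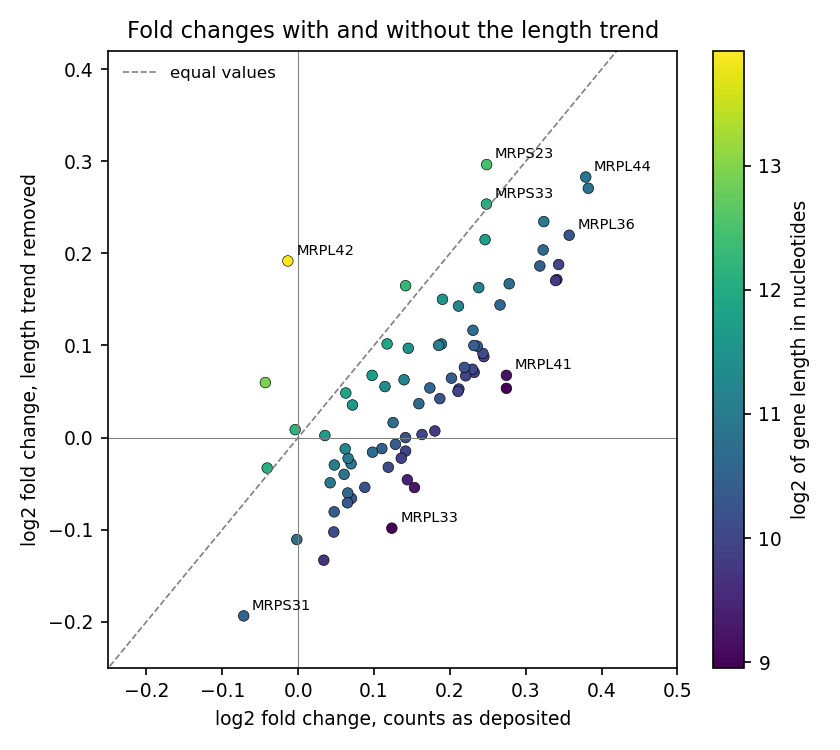
The log2 fold change of each tested member from the deposited counts (x axis) and with each library's length trend removed (y axis), coloured by log2 of gene length. Short genes such as MRPL41 and MRPL33 fall below the line of equal values, the long genes MRPS23, MRPS33 and MRPL42 lie on or above it, and the median is 0.05 on the y axis against 0.15 on the x axis.

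The level of the mRNAs spanned a wide range in every library. Levels between genes are given as the deposited FPKM, which are scaled to gene length and library total. MRPL12 was the highest, at 255 ± 36.9 FPKM with apigenin and 221 ± 2.97 FPKM with DMSO (SD, n = 3 each). MRPL39 was the lowest tested one, at 4.98 ± 0.576 FPKM with apigenin and 4.86 ± 0.507 FPKM with DMSO. The ratio of their mean FPKM was 48.4, although most of these proteins are present once per ribosome. MRPL24 (190 ± 20.5 with apigenin, 175 ± 4.06 with DMSO), MRPL51 (176 ± 29.4 and 156 ± 4.21) and MRPL41 (124 ± 17.0 and 102 ± 1.77) followed MRPL12 among the large subunit symbols, in FPKM. Apigenin libraries were more spread than DMSO libraries in each of these.

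Among small subunit symbols MRPS7 (154 ± 16.9 with apigenin, 132 ± 2.90 with DMSO), MRPS34 (113 ± 17.3 and 101 ± 5.47), MRPS35 (103 ± 3.17 and 99.7 ± 1.49) and MRPS12 (71.2 ± 11.5 and 62.6 ± 3.85) had the highest mean FPKM (SD, n = 3 each). At the low end in FPKM were MRPL42, MRPL22 and MRPL57 of the large subunit, and MRPS31, MRPS28 and MRPS14 of the small one. MRPL42 is the longest member (15560 nucleotides), and without scaling to length it averaged 117 ± 8.83 CPM with apigenin and 118 ± 4.24 CPM with DMSO. Over all members the median FPKM was 26.6, 26.4 and 30.6 in apigenin 1 to 3, against 25.9, 26.3 and 24.5 in DMSO 1 to 3. Members with a mean of over 50 FPKM numbered 20, and 9 tested ones were under 10. Together the 78 genes took 0.473, 0.448 and 0.532% of the counts with apigenin, against 0.437, 0.440 and 0.435% with DMSO.

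**Figure D5:**
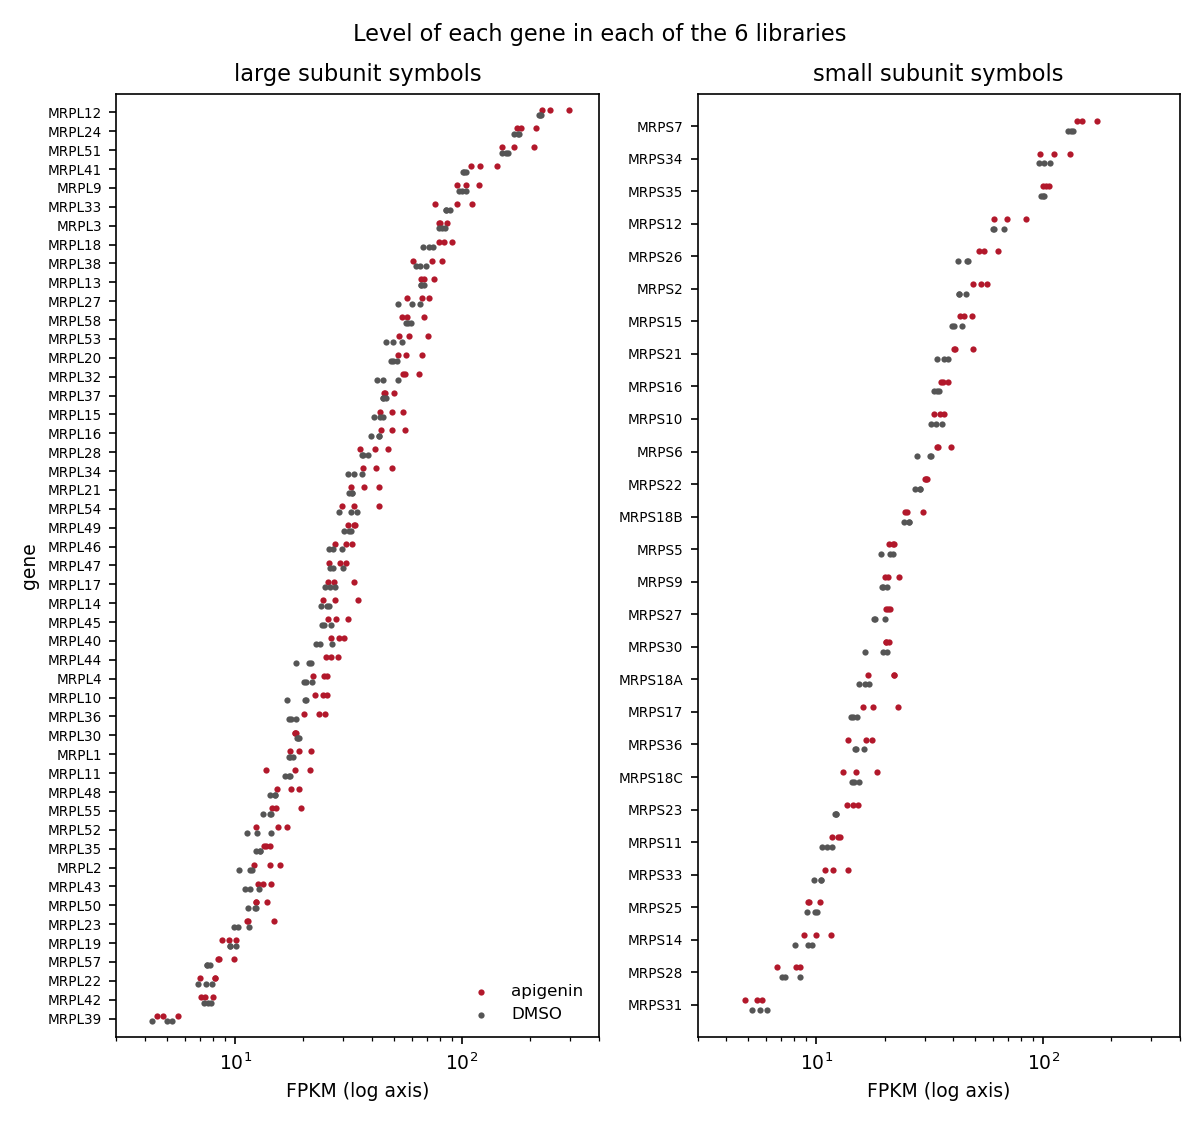
FPKM (log axis) of each member in each of the 6 libraries, apigenin drawn above DMSO, with large subunit symbols on the left and small ones on the right. MRPS24, with at most 4 reads in a library, is left out. Levels run from about 5 FPKM for MRPL39 to over 200 FPKM for MRPL12 in both groups, a span far wider than any difference between the groups.

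Many of these genes share short motifs at their starts. RefSeq promoters (GRCh38.p14, 250 bases before to 50 after the start) were matched for 70 of the 78 genes, and were searched on both strands. CCGGAAG, the core letters bound by ETS factors such as GABP, a known regulator of mitochondrial genes, was found in 29 of 70 promoters (41.4%), against 14.6% of the 16864 promoters of listed genes. AAGATGGC, the core letters of YY1, was found in 20 (28.6%), against 3.97%. For NRF1, another regulator of mitochondrial genes, 3 related spellings of its site were searched in turn, and all are given because the share depended on the spelling. The full consensus was in 2 promoters (2.86%, against 2.25% of all), its fixed core in 1 (1.43%, against 1.89%), and the core with any letter at a middle base in 8 (11.4%, against 8.87%). These motifs were chosen as textbook sites, a match is not shown to be bound, and no match says only that the letters are not in the window.

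Of the called genes with a match, and of some of the most abundant or best studied members, a single match each is shown 5′ to 3′ on the gene's strand with its flanks, the match in capitals. CTTCCGG and GCCATCTT are the reverse complements of the letters above.
MRPS23, chr17:57850041-57850069, minus strand: tggagcagccgCTTCCGGttccggtagca
MRPS26, chr20:3046004-3046032, plus strand: tccccgcgccgCTTCCGGggcacggtggc
MRPS12, chr19:38930928-38930956, plus strand: acggatagcgcCCGGAAGaggctagaagc
MRPS34, chr16:1773146-1773174, minus strand: gacaccggcctCTTCCGGtgacttccggc
MRPL51, chr12:6493349-6493377, minus strand: cggcaggcggaCCGGAAGcactgaggcgg
MRPL3, chr3:131502986-131503014, minus strand: tgtaaaacgcaCCGGAAGtgggtccggcg
MRPL36, chr5:1799854-1799883, minus strand: ccccccccgccGCCATCTTccttcctggca
MRPL32, chr7:42932143-42932172, plus strand: acccgcgctccGCCATCTTtacccgaagag
MRPS7, chr17:75261887-75261916, plus strand: cgtggccagccAAGATGGCtgcccccgcag

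Genes with and without these letters had similar fold changes. The median log2 fold change was 0.16 for the 29 tested members with CCGGAAG and 0.14 for the 40 without, and 0.15 for the 19 tested members with AAGATGGC and 0.15 for the 50 without. MRPL44 and MRPS2 had neither in their promoter. The windows searched for them lie inside the gene spans given above (223957213 to 223957512 for MRPL44, 135500432 to 135500731 for MRPS2). That of MRPL36 does too (1799788 to 1800087), so starts at the outer ends of these genes were not searched. MRPL10 had no promoter entry. Among the factors themselves, GABPB1, which encodes the partner of the DNA-binding GABPA, had 39.2, 41.2 and 38.4 CPM with apigenin, against 35.7, 32.1 and 32.2 CPM with DMSO. The groups did not overlap, but it did not pass (0.25 ± 0.076, adjusted p = 0.0634). GABPA (0.01 ± 0.084), NRF1 (0.13 ± 0.105), YY1 (0.12 ± 0.057) and MYC (-0.09 ± 0.055) did not pass either.

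Other genes of the same machinery were read from the same fit. Mitochondrial ribosomal proteins with other names, DAP3, PTCD3, CHCHD1, AURKAIP1 and GADD45GIP1, had log2 fold changes of -0.05 to 0.30. None of the 5 passed edgeR's test, and 2 were higher at an unadjusted p under 0.05, against 11.7% of all tested genes. Of 28 genes for ribosome assembly and rRNA modification, 1 rose, none fell and 27 did not pass, where 2.76% of all tested genes rose, with a median of 0.14 at a median length of 3570 nucleotides. The one that rose was MRM3, which methylates the large ribosomal RNA. It had 36.9, 36.1 and 37.5 CPM with apigenin, against 27.3, 28.0 and 29.8 CPM with DMSO (0.38 ± 0.074, adjusted p = 0.00859). The groups stood well apart.

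Of 5 genes for mitochondrial transcription 1 rose, where 2.76% of all tested genes rose. TFB2M, which opens the promoters of mitochondrial DNA, had 49.4, 50.4 and 56.7 CPM with apigenin, against 44.1, 41.8 and 39.5 CPM with DMSO (log2 fold change 0.32 ± 0.077, adjusted p = 0.0254). TFAM, which packs mitochondrial DNA, had 0.04 ± 0.061. None of 18 translation factor genes passed edgeR's test (median 0.07). At an unadjusted p under 0.05, 2 of the 18 were higher, against 11.7% of all tested genes.

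The mRNAs that the mitochondrial ribosome translates, from the 13 protein-coding genes of mitochondrial DNA, had a median log2 fold change of -0.03. None passed edgeR's test, and 2 were lower at an unadjusted p under 0.05, against 12.6% of all tested genes. The 13 genes took 6.95, 6.47 and 6.66% of counts with apigenin, against 6.79, 6.61 and 6.88% with DMSO. For comparison, the 77 cytosolic ribosomal protein genes, which are also short (median 1119 nucleotides), had a median of 0.20, and their medians were 0.15, 0.02 and 0.42 in apigenin 1 to 3, the same order of libraries as in the mitochondrial set. The difference between these sets was not tested.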

How the data were processed

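HCC-LM3 RNA was taken up in TRIzol and libraries came from a VAHTS V6 kit, per the labels' protocols. The submitters' processing notes name fastp, HISAT2, HTSeq and GRCh38, and no source used here states the strand setting of the counting. The authors deposited raw read counts per gene symbol and FPKM values. The deposited FPKM equal count over length and library total for 100% of genes (relative tolerance 0.0001), which gave the gene lengths.

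Counts were fitted with edgeR 4.0.16 (R 4.3.3), with TMM factors, its default low count filter, the quasi-likelihood test and Benjamini-Hochberg adjustment over all 15173 tested genes at 0.05. The SE is the log2 fold change over the root of F. Log2 CPM used a prior count of 2. The p-values measure the spread between the labelled biological replicates. Other settings were DESeq2 1.42.0, limma 3.58.1 on log2(FPKM + 1) or log2(FPKM + 0.1), which understates changes of low genes, other scaling factors and filters, the replicate number as a block, and each library left out. In 2 further settings each library's lowess trend (span 0.3) on log2 length or, chosen after seeing the data, on GC content was removed as an offset. GC content was known for all 78 members and 13489 of the tested genes.

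The members, lists and tests were chosen with earlier results of these data known. Members named are those called, the 10 largest and 10 smallest changes, the 4 highest and 4 lowest levels of each subunit and a list by role; any other is marked in the text or named in a count. Positions and promoters are RefSeq's (GRCh38.p14). One further list of mitochondrial translation genes is not reported here.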

Additional observations from a re-analysis of the deposited data

How the results depend on the processing

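RLE factors, total counts and a filter of 1 CPM called the same 7 members, and 2.77, 2.7 and 3.61% of all genes higher. With the GC trend removed 7 members were called, of which 6 were among the same 7, since MRPL36 was lost and MRPL18 gained. In that fit 3.29% of all genes were called higher. DESeq2 called 14 members, 727 genes higher and 973 lower, and edgeR with no filter 21, 865 and 1096. limma called 4 members with either pseudocount. Over all genes it called 352 (2.8%) higher and 303 lower with 1, and 336 (2.67%) higher and 289 lower with 0.1. With no filter limma called 0 members, 78 genes higher and 60 lower. At an unadjusted p under 0.05, 28 members were higher in that fit, where the share of all genes was not computed. With the length trend removed edgeR called 3 members, 2 of them among the 7, and 702 genes higher (4.63%). The small subunit median was then 0.045. Over the 9 settings that leave out a library, 3 of which also remove the length trend, members called ranged from 0 to 33, all genes higher from 103 to 1344 and lower from 157 to 1546, and the small subunit median from 0.033 to 0.18 (lowest 0.075 where only a library was left out). With the length trend removed and apigenin 1, 2 or 3 left out, 3, 7 and 4 members were called. Over all genes 2.72, 6.32 and 4.18% were called higher in these fits. No member was called lower in any setting run, and at most 2 in a setting were lower at an unadjusted p under 0.05. With the replicate number as a block 10 members were called, the 7 among them, with 455 genes higher and 776 lower. Deviations of same-numbered libraries correlated at -0.017, -0.019 and -0.048, and no apigenin library correlated best with the DMSO library of its own number. With 3 libraries per group, these correlations cannot decide whether the numbers pair the samples.

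With the length trend removed, 23 of all members above 0 lay below it and 3 below 0 lay above it. Among the named members whose sign changed, the log2 fold changes were then -0.10 for MRPL58, -0.049 for MRPS35, -0.13 for MRPS28, 0.0086 for MRPS25, 0.19 for MRPL42, 0.060 for MRPL19, -0.032 for MRPL24, -0.012 for MRPL11, -0.066 for MRPL13, -0.028 for MRPS18B, -0.060 for MRPS18C and -0.012 for MRPS22. With the GC trend removed they were 0.038 for MRPL3, 0.0092 for MRPS25, 0.039 for MRPL42 and 0.0060 for MRPL19, and with the 1 CPM filter 0.00062 for MRPL3. Over the 9 settings that leave out a library, of which 3 also remove the length trend, they ranged from -0.14 to 0.11 for MRPL58, -0.060 to 0.070 for MRPS35, -0.091 to 0.099 for MRPL39, -0.24 to 0.13 for MRPS28, -0.13 to 0.025 for MRPL3, -0.071 to 0.046 for MRPS25, -0.075 to 0.30 for MRPL42, -0.093 to 0.12 for MRPL19, -0.25 to 0.0032 for MRPS31 and -0.054 to 0.18 for MRPL24. For the others they ranged from -0.048 to 0.29 for MRPL51, -0.042 to 0.27 for MRPS34, -0.024 to 0.29 for MRPS12, -0.14 to 0.23 for MRPL11, -0.075 to 0.12 for MRPL13, -0.081 to 0.12 for MRPS18B, -0.15 to 0.18 for MRPS18C, -0.070 to 0.12 for MRPS22 and -0.041 to 0.19 for MRPS30. In MRPS35, MRPL24, MRPL51, MRPS34, MRPS12, MRPL13, MRPS22 and MRPS30 the sign changed in settings that remove the length trend, and leaving out a library alone did not change it. Why the signs changed was not tested. Only MRPS24 had too few counts to be tested. Among the tested members MRPS28 had the fewest counts, 190 to 264 per library, and the largest SE, 0.150.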
